A study of Homo sapiens with 4 samples.

Results

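The nuclear-encoded subunits of the mitochondrial respiratory chain and of ATP synthase were followed in A549 cells, an established human epithelial line from a lung carcinoma, after knockdown of PSME4. They were taken by symbol, as genes named NDUFA, NDUFB, NDUFC, NDUFS, NDUFV, UQCR, COX4 to COX8, ATP5F, ATP5M or ATP5P, together with the SDH genes, CYC1 and CYCS. The rule found 84 of the 15037 genes in the deposited count table, namely 37 of complex I, 4 of complex II, 10 of complex III, 14 of complex IV, 18 of complex V and the gene of cytochrome c. A further 8 NDUFAF assembly factors and 2 noncoding neighbours carried matching symbols and were left out. NDUFA4 and its paralog NDUFA4L2 were placed in complex IV, where their products are now assigned. The samples were 2 libraries of PSME4 knockdown cells (PSME4 KD) and 2 of cells with a knockdown labelled RFP (control KD), all made from polyadenylated RNA. PSME4 is an activator that caps the proteasome, and the design sets cells depleted of it against the control. Both groups had undergone a knockdown, and the labels do not name the agent, its duration or whether libraries of 1 group were grown as separate cultures. The p-values therefore reflect the spread between libraries alone, and that spread may be technical.

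The respiratory chain sits in the inner mitochondrial membrane and passes electrons to oxygen. Complex I takes them from NADH and complex II from succinate, ubiquinone carries them to complex III, cytochrome c carries them on to complex IV, and ATP synthase, or complex V, uses the resulting proton gradient to make ATP. Complexes I, III, IV and V combine nuclear-encoded subunits with a few encoded in mitochondrial DNA, while complex II is wholly nuclear-encoded. The mitochondrially encoded subunits were not analysed here.

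The subunits did not move together: transcripts of some subunits were higher and those of others lower in PSME4 KD cells, within the same complex. Of 82 subunits with enough counts for a test, 22 passed an adjusted p of 0.05, with 12 higher and 10 lower in PSME4 KD. That was 26.8% of the subunits, against 10.6% of all 13497 genes tested, and 13.1% of those that averaged 50 CPM or more (CPM being counts relative to library size). Higher calls made up 14.6% of the subunits and 4.56% of all genes, and lower calls 12.2% of the subunits and 6% of all genes. The median log2 fold change of PSME4 KD over control KD was 0.11 over the subunits and −0.00209 over all genes, and single subunits ran from −1.08 (NDUFC2) to 1.69 (UQCRHL). The groups' libraries were fully apart for 27 subunits that were higher and 24 that were lower in PSME4 KD, which is 62.2% of those tested against 55% of all genes. Adjusted p-values come from the quasi-likelihood test of edgeR, adjusted over all tested genes by the Benjamini-Hochberg method, except where another test is named, and those of the 22 subunits ran from 4.37e-05 to 0.0497. Of the 22, 10 overlap another annotated gene, and no source says if reads were assigned by strand, so their counts may include reads of that gene. NDUFA4L2 and ATP5MGL were below the filter on low counts. NDUFA4L2 had 10 and 16 counts in PSME4 KD 1 and 2 against 6 and 3 in control KD 1 and 2, and ATP5MGL 3 and 7 counts in PSME4 KD against 7 and 8 in control KD.

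**Figure D1:**
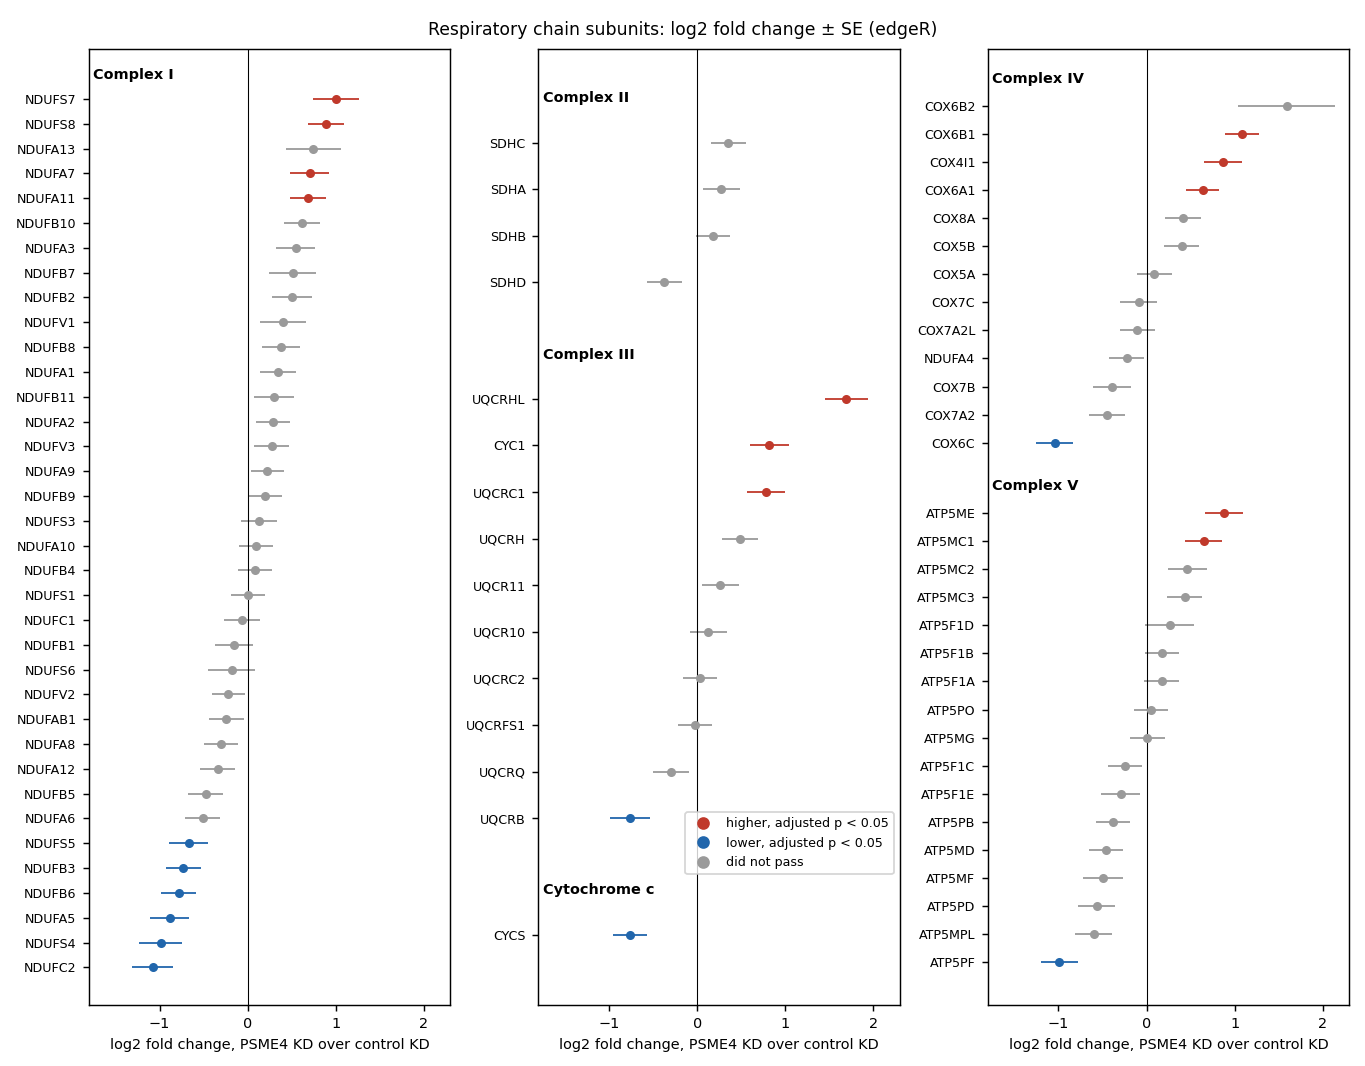
Log2 fold change of PSME4 KD over control KD for tested subunits, by complex, on the x axis; points are fitted values and bars are ± SE (2 libraries per group). Complexes I, III, IV and V each hold both red points, higher in PSME4 KD, and blue points, lower in PSME4 KD, while the 4 subunits of complex II are grey.

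By complex, the calls were 4 higher and 6 lower of 37 in complex I, 0 of 4 in complex II, 3 higher and 1 lower of 10 in complex III, 3 higher and 1 lower of 13 in complex IV, and 2 higher and 1 lower of 17 in complex V. The gene of cytochrome c was lower. The median log2 fold change was 0.13 in complex I, 0.23 in complex II, 0.20 in complex III, 0.09 in complex IV and 0.01 in complex V. These medians are descriptions and were not tested against each other. The share of complex I subunits that passed, 27%, stood between those of complex IV (30.8%) and complex V (17.6%).

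The summed level of the whole set hardly differed between the groups. It was 20616 and 20094 CPM in PSME4 KD 1 and 2, and 22469 and 18602 CPM in control KD 1 and 2, so the control KD values lay on both sides of those of PSME4 KD, and the ratio of the means was 0.991. The sums of complexes I, III, IV and V also overlapped between the groups, with ratios of PSME4 KD to control KD from 0.967 to 1.04. Complex II summed to 807 and 767 CPM in PSME4 KD 1 and 2, both above the 649 and 742 CPM in control KD 1 and 2. Such sums are dominated by abundant subunits and carry no test, since the smallest p of an exact two-sided permutation test of 2 libraries against 2 is 0.333. In RNA from a whole culture, fewer cells of a kind and less RNA per cell cannot be told apart.

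**Figure D2:**
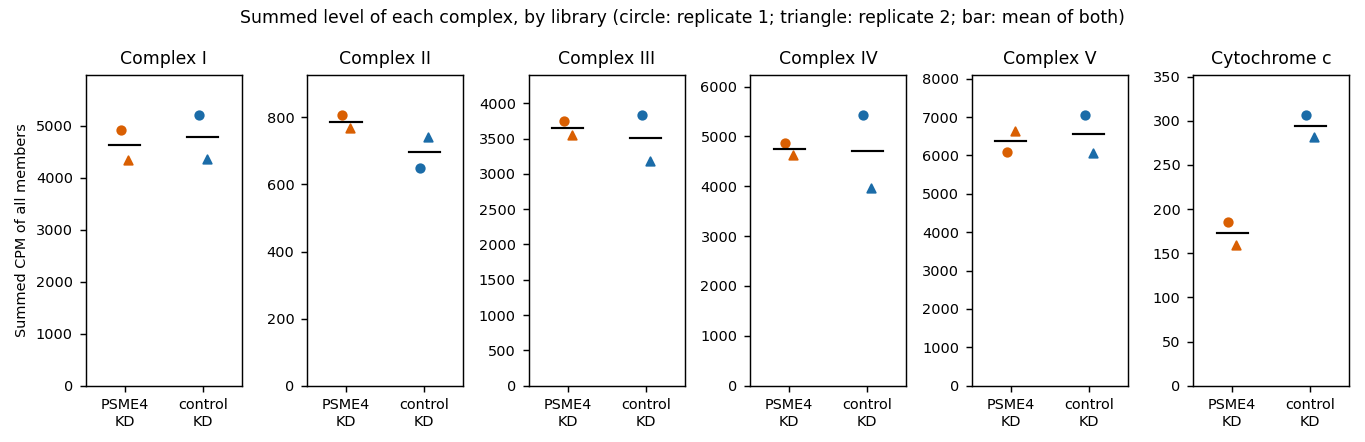
Summed CPM of all members of each complex on the y axis, for PSME4 KD (left) and control KD (right); circles are replicate 1, triangles replicate 2 and bars the mean of both. The control KD libraries enclose or overlap the PSME4 KD libraries in complexes I, III, IV and V, and lie below them in complex II and above them for cytochrome c.

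Levels spanned a wide range. Per kilobase of transcript, COX7B averaged 1029 CPM per kb in PSME4 KD and 1352 in control KD, and UQCRQ 1076 in PSME4 KD and 1322 in control KD, which put these small subunits of complexes IV and III at the top of the control KD order. At the bottom were COX6B2, the testis form of a complex IV subunit, at 0.868 CPM per kb in PSME4 KD and 0.285 in control KD, then NDUFA4L2 and ATP5MGL. UQCRHL, NDUFS7 and ATP5F1D came next, at 3.82, 7.35 and 10.97 CPM per kb in control KD. The UQCRHL value rests on an annotated transcript of 2.18 kb, while its RefSeq span is only the coding sequence of 276 bases. Its place in this order is therefore uncertain. Without division by length UQCRHL averaged 8.32 CPM in control KD, so the call with the largest fold change belonged to a gene of low level. Lengths are medians over the annotated transcripts of a gene, so levels hold only as well as those transcripts are the ones expressed.

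Promoters of respiratory chain genes are known for sites of the nuclear respiratory factor NRF1, of ETS-family factors such as GABPA, and of YY1. The 250 bases before the first start site listed for a gene in RefSeq were searched on both strands, which could be done for 69 of the 84 subunits. The NRF1 motif, GCGCA then any base then GCGC, was present in 14 of them, or 20.3%, against 5.53% of 27305 promoters, and the ETS motif CCGGAAGT in 10, or 14.5%, against 3.64%. The 27305 promoters include genes absent from the 15037 counted, and the share among expressed genes alone was not computed. The YY1 motif AAGATGGCG was found in 1 (1.45% against 0.641%), and the estrogen-related receptor motif TCAAGGTCA in 0 (against 0.319%). Subunits with the NRF1 motif included 3 that rose, NDUFA11, UQCRC1 and ATP5ME, and 0 that fell, the others with it not passing the test. Of all 69 subunits searched, 16 were called in either direction, so those with the motif were called about as often. The transcripts of these 3 have a GC content of at least 50%, a class in which 0 of 40 tested subunits fell. A link between the motif and direction was not tested. The subunit with the YY1 motif, ATP5PF, fell, and 0 of the called subunits held the ETS motif in this window. In 10 subunits more than 1 start is listed, and over all starts the ETS motif was found in 12 subunits, ATP5PF among them (17.4%, against 4.13% of all genes), while the other 3 motifs had the same number of subunits. A match describes letters in a window and is not evidence of a bound site. These 4 promoters are shown because they belong to subunits past the threshold that hold a motif, 5′ to 3′ on the strand of the gene (RefSeq, GRCh38.p14), with the motif in capitals, or its reverse complement where it lies on the opposite strand.
NDUFA11, chr19:5903791-5904040, minus strand: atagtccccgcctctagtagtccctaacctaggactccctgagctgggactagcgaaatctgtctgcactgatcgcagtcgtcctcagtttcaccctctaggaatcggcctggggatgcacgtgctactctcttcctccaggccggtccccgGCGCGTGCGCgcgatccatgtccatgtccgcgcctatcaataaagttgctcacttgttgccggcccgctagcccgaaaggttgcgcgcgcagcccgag
UQCRC1, chr3:48609647-48609896, minus strand: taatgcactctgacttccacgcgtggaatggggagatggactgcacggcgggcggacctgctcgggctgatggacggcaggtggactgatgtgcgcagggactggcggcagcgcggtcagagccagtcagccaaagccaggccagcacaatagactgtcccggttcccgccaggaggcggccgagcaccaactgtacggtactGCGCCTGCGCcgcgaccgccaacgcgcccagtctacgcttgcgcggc
ATP5ME, chr4:674277-674526, minus strand: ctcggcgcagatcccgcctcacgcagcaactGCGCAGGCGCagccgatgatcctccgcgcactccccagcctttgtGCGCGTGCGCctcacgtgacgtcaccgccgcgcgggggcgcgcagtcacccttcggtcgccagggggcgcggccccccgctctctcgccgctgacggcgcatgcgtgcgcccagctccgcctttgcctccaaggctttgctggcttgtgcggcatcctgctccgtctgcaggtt
ATP5PF, chr21:25735055-25735304, minus strand: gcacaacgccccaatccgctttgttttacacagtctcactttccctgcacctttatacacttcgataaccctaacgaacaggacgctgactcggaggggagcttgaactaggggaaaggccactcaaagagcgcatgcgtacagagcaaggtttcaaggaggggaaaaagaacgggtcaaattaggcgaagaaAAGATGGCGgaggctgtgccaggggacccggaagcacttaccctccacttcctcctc
Counted from the start site, the NRF1 motif began at −98 in NDUFA11 and at −47 in UQCRC1. ATP5ME held it at both −219 and −174, the first on the gene's strand. In ATP5PF the YY1 motif began at −57, counted from a start that lies inside the annotated span of the gene.

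In complex I, the 7 nuclear-encoded core subunits, which carry the flavin and the iron-sulfur clusters, had a median log2 fold change of 0.40, and 2 of them rose. NDUFS7, which carries the last iron-sulfur cluster before ubiquinone (chr19:1383907-1395584), stood at 17.3 and 13.3 CPM in PSME4 KD 1 and 2, against 8.05 and 7.22 CPM in control KD 1 and 2. Both PSME4 KD libraries were above both control KD libraries, an increase of 1.00 on the log2 scale (SE 0.26; edgeR adjusted p = 0.0140) that rests on 93 and 84 counts in the control KD libraries. NDUFS8, another iron-sulfur subunit of the same arm (chr11:68030681-68036644), was at 115 and 83.3 CPM in PSME4 KD, against 54.8 and 52.5 CPM in control KD. That was 1.85-fold higher (log2 0.89, SE 0.21; edgeR adjusted p = 0.00687), and the 2 groups did not overlap. No other core subunit passed, and log2 fold changes among them included 0.40 for NDUFV1, 0.13 for NDUFS3, 0.00159 for NDUFS1 and −0.22 for NDUFV2. Both calls held after a correction for each library's trend, over all genes, on the GC content of transcripts, at 0.81 for NDUFS7 and 0.64 for NDUFS8. Across the subunits a trend on GC content remained after this correction, as given below. Neither call passed without PSME4 KD 1 (0.80 and 0.64), control KD 1 (1.08 and 0.92) or control KD 2 (0.93 and 0.86).

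Of the 30 supernumerary subunits of complex I, which surround the core and have roles in its assembly and stability, 6 fell and 2 rose. NDUFC2, a subunit of the membrane arm (chr11:78068297-78079862), stood at 97.3 and 58.7 CPM in PSME4 KD 1 and 2, against 198 and 131 CPM in control KD 1 and 2. It was 2.11-fold lower (log2 −1.08, SE 0.23; edgeR adjusted p = 0.00355), and its 2 groups did not overlap. NDUFS4, an accessory subunit of the NADH-oxidising end whose loss causes Leigh syndrome (chr5:53560639-53683338), was at 21.2 and 12.2 CPM in PSME4 KD, against 36.8 and 29.4 CPM in control KD (log2 −0.99, SE 0.25; edgeR adjusted p = 0.0113). PSME4 KD 2 was the lowest library for both genes. NDUFA5, a subunit of the arm that projects into the matrix (chr7:123536997-123601651), had 29.03 and 19.4 CPM in PSME4 KD, against 46.7 and 42.8 CPM in control KD, and fell by 0.89 on the log2 scale (SE 0.22).

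NDUFB6 and NDUFB3, both of the membrane arm, fell to a similar extent. NDUFB6 (chr9:32553001-32573159) had 167 and 143 CPM in PSME4 KD, against 281 and 252 CPM in control KD (log2 −0.78, SE 0.19). NDUFB3 (chr2:201072001-201085750) had 174 and 143 CPM in PSME4 KD, against 283 and 244 CPM in control KD (log2 −0.73, SE 0.20). The groups were apart for each of them, by more than the gap between libraries of a group. NDUFS5, on the intermembrane-space face (chr1:39026350-39034615), was at 319 and 200 CPM in PSME4 KD and at 485 and 339 CPM in control KD (log2 −0.67, SE 0.22). Here control KD 2 lay only just above PSME4 KD 1, and the edgeR adjusted p was 0.0497, the closest to the threshold of the 22.

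The supernumerary subunits that rose were NDUFA7 and NDUFA11. NDUFA7, of the matrix arm (chr19:8308595-8321375), had 44.7 and 38.8 CPM in PSME4 KD, against 29.3 and 22.01 CPM in control KD (log2 0.70, SE 0.22; edgeR adjusted p = 0.0368). NDUFA11, a membrane subunit whose promoter is printed above (chr19:5891229-5903790), had 66.6 and 53.3 CPM in PSME4 KD, against 36.9 and 37.7 CPM in control KD (log2 0.68, SE 0.21; edgeR adjusted p = 0.0311). For both, each PSME4 KD library lay above each control KD library. The remaining 22 supernumerary subunits did not pass. The highest fold change among them was 0.74 (SE 0.31) in NDUFA13, where PSME4 KD 1 stood at 89.1 CPM but PSME4 KD 2 at 24.6 CPM, below the 36.1 and 31.8 CPM of control KD 1 and 2. NDUFB9, a membrane-arm subunit encoded on chromosome 8, was at 0.20 (SE 0.19) and did not pass. NDUFA13 was named after its values were seen.

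Among these complex I calls, NDUFC2 (−1.08), NDUFS4 (−0.83) and NDUFB6 (−0.59) also passed after the GC correction, and NDUFA5 (−0.51), NDUFB3 (−0.51), NDUFS5 (−0.66), NDUFA7 (0.51) and NDUFA11 (0.44) did not. When transcript length was corrected for as well, NDUFB6 (−0.52) did not pass and NDUFA7 (0.58) did. None of the 8 supernumerary calls passed in any edgeR fit with 1 library left out. Without PSME4 KD 1, NDUFC2 was at −1.49, NDUFS4 at −1.44 and NDUFS5 at −1.04. NDUFS4 was at −0.62 and NDUFS5 at −0.34 without PSME4 KD 2, and NDUFS5 was at −0.39 without control KD 1.

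Complex II, succinate dehydrogenase, also works in the citric acid cycle. None of its 4 subunits passed by edgeR, 0 had an unadjusted p under 0.05, and DESeq2 and limma voom also called 0. SDHC, a membrane anchor, had the highest log2 fold change, 0.35 (SE 0.20), with 291 and 325 CPM in PSME4 KD 1 and 2 and 206 and 275 CPM in control KD 1 and 2. SDHD, the other anchor, had the lowest, −0.37 (SE 0.20), with 94.8 and 80.8 CPM in PSME4 KD and 107 and 120 CPM in control KD. The 2 anchors had values of opposite sign, and neither difference passed the test. Their groups did not overlap, which was also so for 55% of all genes tested. SDHA, the flavoprotein, and SDHB, the iron-sulfur subunit, were at 0.27 (SE 0.21) and 0.18 (SE 0.19).

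In complex III, UQCRHL had the largest fold change of all subunits. UQCRHL is an intronless copy of UQCRH, the hinge protein next to cytochrome c1. It had 29.9 and 23.9 CPM in PSME4 KD 1 and 2, against 8.48 and 8.17 CPM in control KD 1 and 2, which is 3.23-fold higher (log2 1.69, SE 0.24; edgeR adjusted p = 4.37e-05). The parent gene UQCRH had 919 and 1061 CPM in PSME4 KD, against 814 and 603 CPM in control KD, a log2 fold change of 0.48 (SE 0.20) that did not pass. After the GC and length correction UQCRH was at 0.60 and passed. Counts of UQCRHL were 455 and 364 in PSME4 KD against 98 and 95 in control KD, and as a share of the counts of both genes they were 3.15% and 2.2% in PSME4 KD against 1.03% and 1.34% in control KD. The coding sequence of UQCRHL covers chr1:15807374-15807649 in a single exon, and that of UQCRH is spread over 4 exons at chr1:46303767-46316584. The coding sequences (GENCODE 29, GRCh38) are printed to show how little separates the copies: both have 276 bases, 98.6% are identical, and the 4 that differ are in capitals.
UQCRH: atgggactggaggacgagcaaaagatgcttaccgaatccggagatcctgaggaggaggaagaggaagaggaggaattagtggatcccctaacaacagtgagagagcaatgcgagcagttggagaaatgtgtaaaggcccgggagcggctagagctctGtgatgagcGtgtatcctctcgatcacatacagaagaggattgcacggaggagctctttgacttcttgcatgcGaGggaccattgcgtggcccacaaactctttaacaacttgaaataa
UQCRHL: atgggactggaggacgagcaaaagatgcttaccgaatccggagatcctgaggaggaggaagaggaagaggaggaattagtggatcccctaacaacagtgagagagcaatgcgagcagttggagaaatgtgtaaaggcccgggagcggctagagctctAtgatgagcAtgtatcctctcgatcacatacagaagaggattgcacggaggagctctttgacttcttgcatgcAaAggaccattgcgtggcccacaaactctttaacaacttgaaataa
Counted from 1 at the first coding base, with the UQCRH base first and the UQCRHL base after it, the differences are G158A, G167A, G231A and G233A. Of the 50-base windows of the coding sequence 53.7% were identical in the 2 genes, and of the 75-base windows 41.1%. The sources used here do not give how reads that match both copies were counted, so the split of counts between UQCRHL and UQCRH is uncertain.

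The other called subunits of complex III went both ways. CYC1, the heme-bearing cytochrome c1 (chr8:144095076-144097525), had 157 and 89.8 CPM in PSME4 KD, against 64.4 and 75.8 CPM in control KD. PSME4 KD 1 stood well apart from the other 3 libraries, and the log2 fold change was 0.82 (SE 0.22; edgeR adjusted p = 0.0195). UQCRC1, a core protein (chr3:48599002-48609646), had 85.8 and 58.6 CPM in PSME4 KD, against 46.6 and 37.5 CPM in control KD (log2 0.78, SE 0.22; edgeR adjusted p = 0.0208). UQCRB, a small subunit near the ubiquinone site (chr8:96222947-96235545), had 278 and 148 CPM in PSME4 KD, against 380 and 341 CPM in control KD (log2 −0.76, SE 0.23; edgeR adjusted p = 0.0299). Its groups did not overlap, but PSME4 KD 2 was far below PSME4 KD 1. The other core protein, UQCRC2, and the Rieske iron-sulfur protein UQCRFS1 had values of 0.04 (SE 0.19) and −0.02 (SE 0.19). The calls of CYC1 (0.55), UQCRC1 (0.53) and UQCRB (−0.51) ended after the GC correction, while UQCRHL was at 1.74 and passed. UQCRHL also passed without PSME4 KD 2 (1.87), and not without PSME4 KD 1 (1.52), control KD 1 (1.72) or control KD 2 (1.67). Without PSME4 KD 1, CYC1 was at 0.36, UQCRC1 at 0.48 and UQCRB at −1.28, and without PSME4 KD 2 UQCRB was at −0.35, none of these passing.

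Cytochrome c, the electron carrier that also triggers caspase activation when released from mitochondria, was lower in PSME4 KD. CYCS (chr7:25118656-25125260) had 186 and 160 CPM in PSME4 KD 1 and 2, against 306 and 281 CPM in control KD 1 and 2. The gap between groups was larger than that between libraries, with a log2 fold change of −0.77 (SE 0.19; edgeR adjusted p = 0.0119), and −0.59 after the GC correction, which also passed. After the GC and length correction the value was −0.52 and did not pass. CYCS thus fell while CYC1, its electron donor in complex III, rose. In RefSeq 45 pseudogenes are named for CYCS, more than for any other subunit, and reads that match both may have been counted for either or dropped. The call did not hold with any of PSME4 KD 1, PSME4 KD 2, control KD 1 or control KD 2 left out, when the value lay between −0.88 and −0.63.

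In complex IV, cytochrome c oxidase, 3 subunits rose and 1 fell. COX6B1, which faces the intermembrane space near the cytochrome c site (chr19:35648323-35658782), had 403 and 493 CPM in PSME4 KD 1 and 2, against 217 and 207 CPM in control KD 1 and 2. It was 2.12-fold higher (log2 1.08, SE 0.20; edgeR adjusted p = 0.000812), with a gap between the groups wider than within either. COX4I1, the common form of a subunit with a regulatory role (chr16:85799695-85807068), had 495 and 326 CPM in PSME4 KD, against 259 and 193 CPM in control KD (log2 0.86, SE 0.21; edgeR adjusted p = 0.0111). COX6A1, the non-muscle form of its subunit (chr12:120438113-120440730), had 242 and 236 CPM in PSME4 KD, against 146 and 162 CPM in control KD (log2 0.63, SE 0.19; edgeR adjusted p = 0.0320). All PSME4 KD values of these 3 genes lay above the control KD values. COX6C, a small membrane subunit (chr8:99877865-99893707), had 139 and 136 CPM in PSME4 KD, against 343 and 224 CPM in control KD. It was 2.06-fold lower (log2 −1.04, SE 0.21; edgeR adjusted p = 0.00201), and the control KD libraries were further from each other than the PSME4 KD libraries.

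Some complex IV subunits exist in forms that differ between tissues. COX6B2 had 16 and 28 counts in PSME4 KD against 4 and 7 counts in control KD, and its log2 fold change of 1.59 (SE 0.55) did not pass (edgeR adjusted p = 0.0621). COX8A, the common form of its subunit, was at 0.41 (SE 0.21), COX7A2, the non-muscle form, at −0.45 (SE 0.21) and COX7A2L, which takes part in joining complexes III and IV, at −0.10 (SE 0.19), none of them past the threshold. NDUFA4 stood at 732 and 785 CPM in PSME4 KD and at 1010 and 766 CPM in control KD, a log2 fold change of −0.23 (SE 0.20) without a call, and its groups overlapped. COX4I2, COX6A2, COX7A1 and COX8C were not analysed here. The calls of COX6B1 (0.87), COX4I1 (0.72) and COX6C (−0.93) held after the GC correction and that of COX6A1 (0.48) did not. COX6B1 passed without PSME4 KD 2 (0.96), and not without PSME4 KD 1 (1.22), control KD 1 (1.11) or control KD 2 (1.06). COX4I1 was at 0.53 without PSME4 KD 1 and did not pass, and COX6C passed without PSME4 KD 2 (−1.002) and without control KD 2 (−1.31) but not without PSME4 KD 1 (−1.06) or control KD 1 (−0.70).

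ATP synthase has a catalytic F1 head, a ring of c subunits that turns as protons pass, and a peripheral stalk that holds the head still. None of the 5 genes of the head passed by edgeR, with log2 fold changes from −0.30 (ATP5F1E) to 0.26 (ATP5F1D), 0 with an unadjusted p under 0.05 and 0 calls by DESeq2 or limma voom. Of the 3 genes that encode the same mature c subunit, ATP5MC1 rose, and ATP5MC2 (0.46, SE 0.22) and ATP5MC3 (0.43, SE 0.20) did not pass. ATP5MC1 (chr17:48892787-48895871) had 181 and 263 CPM in PSME4 KD 1 and 2, against 156 and 128 CPM in control KD 1 and 2 (log2 0.65, SE 0.21; edgeR adjusted p = 0.0429). PSME4 KD 2 was the highest library here. Together the c subunit genes summed to 920 and 1255 CPM in PSME4 KD, against 858 and 697 CPM in control KD, a ratio of 1.40.

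In the peripheral stalk the values lay mostly on the other side. ATP5PF, coupling factor F6 (chr21:25724500-25735653), had 90.8 and 67.3 CPM in PSME4 KD, against 181 and 134 CPM in control KD. It was 1.99-fold lower (log2 −0.99, SE 0.21; edgeR adjusted p = 0.00329), and both PSME4 KD libraries lay below both control KD libraries. Its stalk partners did not pass, at −0.57 (SE 0.21) for ATP5PD, −0.38 (SE 0.19) for ATP5PB and 0.05 (SE 0.19) for ATP5PO. The 4 stalk genes summed to 1053 and 912 CPM in PSME4 KD, against 1434 and 1150 CPM in control KD, a ratio of 0.761. ATP5ME, subunit e of the membrane part, which helps pair the enzyme into dimers (chr4:672436-674276), had 302 and 178 CPM in PSME4 KD, against 129 and 132 CPM in control KD (log2 0.88, SE 0.22; edgeR adjusted p = 0.0101). The libraries of PSME4 KD were far apart for this gene, yet both lay above control KD. Other tested membrane subunits outside the c ring did not pass. They were at −0.60 (SE 0.21) for ATP5MPL, −0.49 (SE 0.23) for ATP5MF, −0.46 (SE 0.19) for ATP5MD and 0.0073 (SE 0.20) for ATP5MG. Together with ATP5ME and ATP5MGL they summed to 1313 and 1272 CPM in PSME4 KD, against 1687 and 1351 CPM in control KD, a ratio of 0.851. ATP5PF (−0.90) and ATP5ME (0.68) passed after the GC correction and ATP5MC1 (0.48) did not. Without PSME4 KD 1 ATP5ME was at 0.45, and without PSME4 KD 2 ATP5MC1 was at 0.38, neither passing, and ATP5PF passed in no edgeR fit with 1 library left out (−1.22 to −0.76 without PSME4 KD 1, PSME4 KD 2, control KD 1 or control KD 2).

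**Figure D3:**
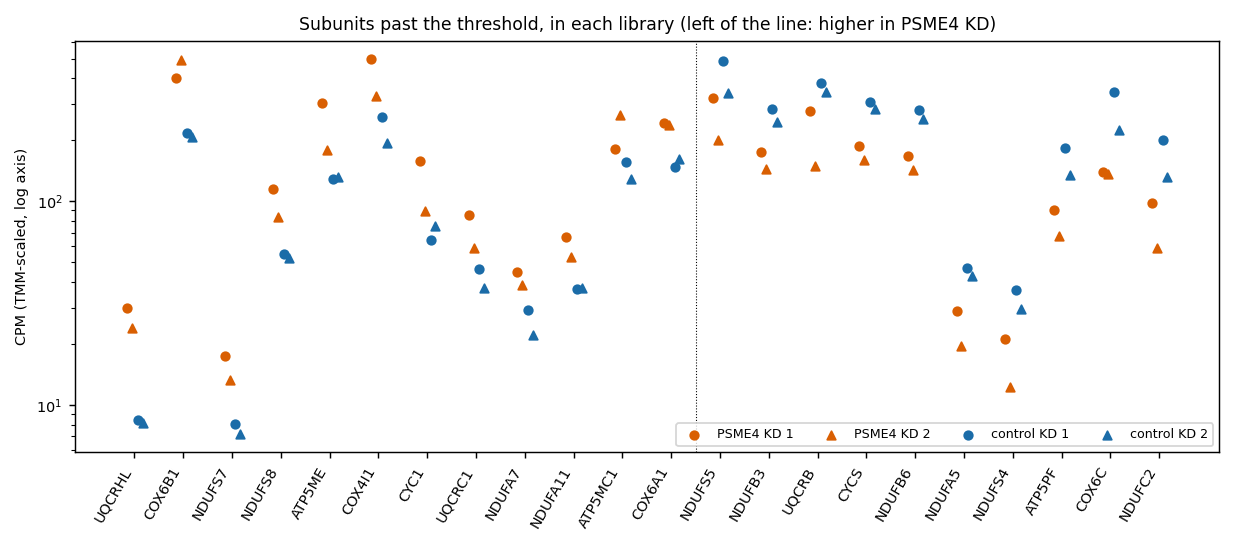
CPM of the 22 subunits past the threshold on a log y axis, in each library; orange marks are PSME4 KD, blue marks control KD, circles replicate 1 and triangles replicate 2. The orange and blue marks of each subunit do not overlap, and the distance between the orange marks differs much between subunits, being small for COX6C and COX6A1 and large for CYC1 and UQCRB.

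The direction of a subunit followed the GC content of its transcripts. Across the 82 subunits, which share their libraries and are not independent, Spearman's rho between the log2 fold change and the GC content was 0.748, against 0.417 across 12973 genes. Of the 40 tested subunits with a GC content of at least 50%, 11 were higher and 0 lower, with 0 lower calls also by DESeq2 and limma voom and 1 lower at an unadjusted p under 0.05, and the median log2 fold change was 0.40. Of the 42 with a lower GC content, 1 was higher, the UQCRHL gene described above, and 10 were lower, with a median of −0.27. In all genes the split ran the same way, with 7.67% higher and 2.48% lower at a GC content of at least 50%, and 1.96% higher and 9.1% lower below it. Libraries of a group also differed with GC content over all genes, the rho of library 2 over library 1 being 0.104 in PSME4 KD and −0.502 in control KD. Across the subunits that rho was −0.0206 in PSME4 KD and −0.0686 in control KD. The GC correction brought rho to 0.592 across the subunits and to 0.0206 across all genes. A trend across the subunits thus remained, and its part in the calls that held was not tested. After it 6 subunits were higher, against 3.87% of all genes, and 6 lower, against 4.99%. All 12 were among the 22, and 8.86% of all genes passed in either direction.

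**Figure D4:**
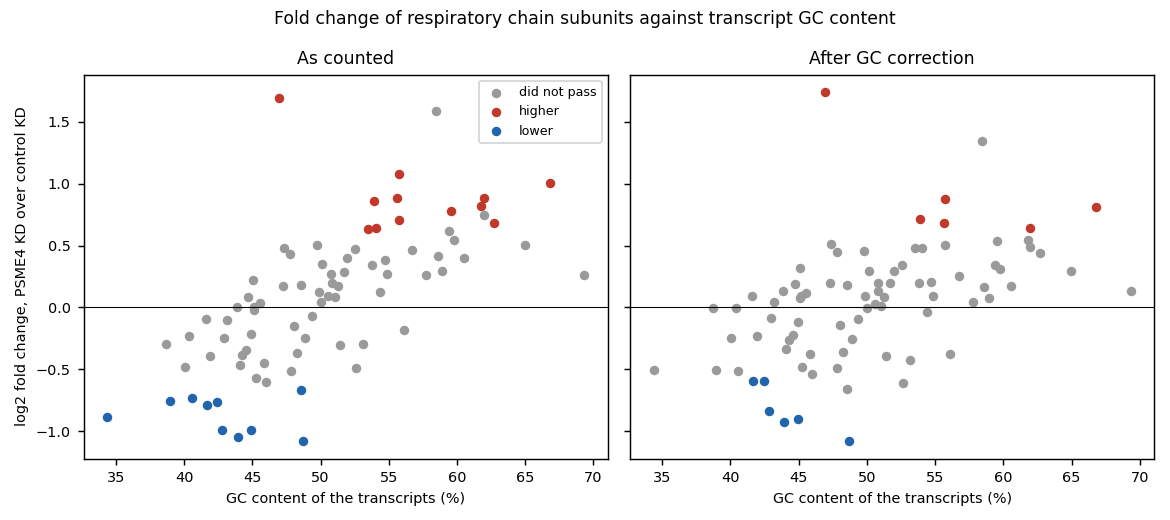
Log2 fold change of PSME4 KD over control KD (y axis) against the GC content of the transcripts in percent (x axis) for the 82 tested subunits, as counted (left) and after the GC correction (right); red and blue points passed an adjusted p of 0.05 in the fit shown. The points slope upward in both panels, with rho 0.748 on the left and 0.592 on the right, and UQCRHL stands alone at the top left.

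The 11 subunits encoded on chromosome 19 had a median log2 fold change of 0.68, and 4 of them rose (COX6B1, NDUFS7, NDUFA7 and NDUFA11), which is 36.4% of them. Of all 852 tested genes of the chromosome 7.98% rose, and their median was 0.23. The median GC content of the 11 was 59.8%, and the calls of NDUFA7 and NDUFA11 ended after the GC correction. On chromosome 8 the 4 subunits went both ways, as COX6C and UQCRB fell, CYC1 rose and NDUFB9 did not pass. Of the 477 tested genes there 20.8% fell and 1.26% rose, with a median of −0.355. The part of the chromosomes and of GC content in the calls was not tested further.

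Which libraries entered the fit mattered for how many subunits passed. The edgeR fit without PSME4 KD 2 called 9 of the 22 and also NDUFA13, where 2.05% of all genes passed. With control KD 2 left out it called COX6C alone (0.669% of all genes), and without PSME4 KD 1 or without control KD 1 it called 0, with 26 and 31 subunits at an unadjusted p under 0.05 (0.312% and 0.378% of all genes passed). With a library left out its group has a single one, which is assumed to vary like the others. All 22 subunits had the same sign in each of the 4 fits. The libraries of a group also differed over this gene set as a whole, as control KD 2 was below control KD 1 in 66 of 82 subunits, or 80.5%, against 52.1% of all genes, and PSME4 KD 2 was below PSME4 KD 1 in 55, or 67.1%, against 50.8%. The subunits have short transcripts, with a median of 757 bases against 2514 over all genes, and the part of length in these library differences was not tested.

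**Figure D5:**
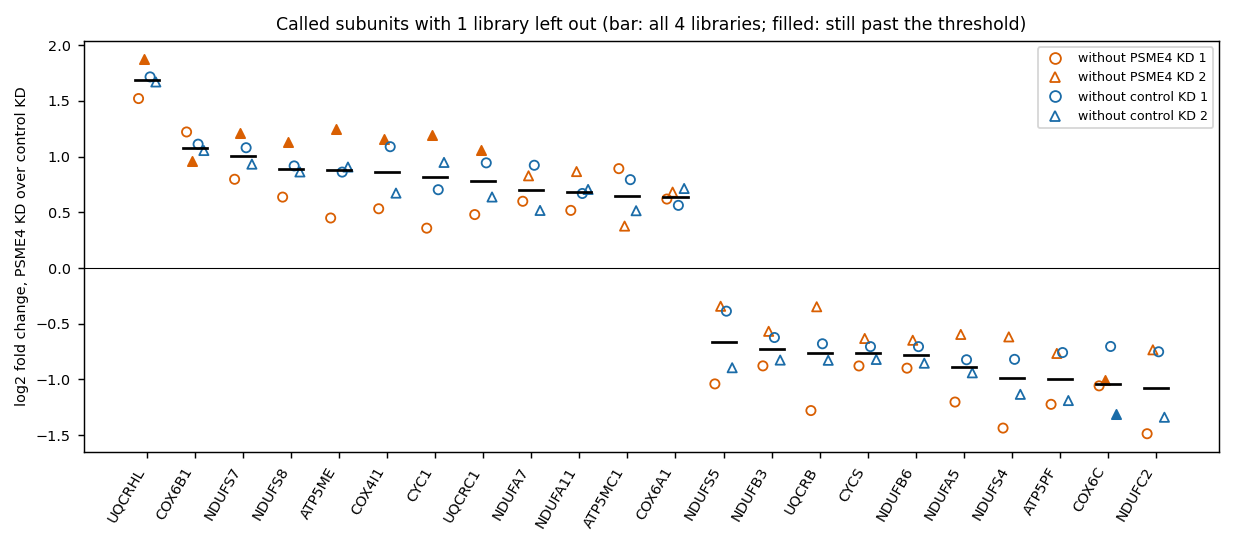
Log2 fold change of PSME4 KD over control KD (y axis) of the 22 subunits in edgeR fits with 1 library left out; black bars are the fit of all 4 libraries, and filled marks are past an adjusted p of 0.05. No mark crosses 0, which the lack of overlap between the groups' libraries nearly fixes. The filled marks are mostly orange triangles, the fit without PSME4 KD 2, among the subunits that rose.

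Genes that build or serve the respiratory chain were read from lists of assembly factors and pathways. Of 30 complex IV assembly factors, 4 fell and 0 rose (DESeq2 called 3 lower and 0 higher, limma voom 4 and 0, and 1 had an unadjusted p under 0.05 and a positive value), with a median log2 fold change of −0.31. That is 13.3% called, all lower, where 10.6% of all genes were called in either direction and 6% lower. They included COX11, which helps insert copper (−0.86, SE 0.20), HIGD1A, a hypoxia-induced partner of the enzyme (−0.72, SE 0.19), and PET117 (−1.18, SE 0.35). PET117 rests on low counts, 43 and 28 in PSME4 KD against 62 and 61 in control KD. Of 17 complex I assembly factors (11.8% called), ECSIT rose (0.92, SE 0.28) and NDUFAF8 fell (−0.70, SE 0.23), and of 6 complex III factors (16.7%) LYRM7, which delivers the Rieske protein, fell (−1.06, SE 0.24). None of 4 factors of complex II passed by edgeR, DESeq2 or limma voom, with 0 at an unadjusted p under 0.05. None of 4 factors of ATP synthase passed by these tools either, with 1 at an unadjusted p under 0.05. In a list of coenzyme Q genes COQ9 rose (0.72, SE 0.20) and COQ10B fell (−0.75, SE 0.21), out of 13 genes (15.4%). The calls of ECSIT (0.67), HIGD1A (−0.46) and COQ10B (−0.51) ended after the GC correction.

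In the citric acid cycle, which feeds the chain, 4 of 13 genes rose and 1 fell, or 38.5% against 10.6% of all genes. IDH3G and IDH3B, subunits of NAD-dependent isocitrate dehydrogenase, rose by 1.22 (SE 0.23) and 0.80 (SE 0.21) on the log2 scale, and DLST of the 2-oxoglutarate dehydrogenase complex by 0.79 (SE 0.20). DLD, a component shared by that complex and others, was at −0.61 (SE 0.20) and fell. After the GC correction 3 genes of the cycle were higher and 0 lower, the calls of DLD (−0.36) and OGDH (0.59) having ended. Of the 14 called genes of these lists, edgeR called 0 without PSME4 KD 1, control KD 1 or control KD 2, and IDH3G alone without PSME4 KD 2. The adenine nucleotide and phosphate carriers, which exchange ATP, ADP and phosphate across the membrane, gave 0 calls in 4 genes by edgeR and limma voom, 1 by DESeq2 and 1 at an unadjusted p under 0.05.

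The knockdown and the identity of the cells were read from the same fit. PSME4 was at 75.3 and 85.1 CPM in PSME4 KD 1 and 2, against 158 and 180 CPM in control KD 1 and 2 (log2 −1.08, SE 0.20; edgeR adjusted p = 0.000855). PPARGC1A, a coactivator of mitochondrial genes, was at 16.6 and 20.3 CPM in PSME4 KD, against 4.41 and 6.54 CPM in control KD (log2 1.75, SE 0.27). The libraries held 15208588 and 14845701 counts in PSME4 KD and 11766371 and 11769392 counts in control KD. All 5 epithelial markers were present, with a summed level of 4005 to 5157 CPM in PSME4 KD and 3698 to 4580 CPM in control KD. Immune markers summed to 39.3 to 39.4 CPM in PSME4 KD and 28.5 to 33.8 CPM in control KD (2 of 4 were in the table). Endothelial markers summed to 12.6 to 14.7 CPM in PSME4 KD and 14.6 to 16.2 CPM in control KD (2 of 4), and fibroblast markers to 26.4 to 28.6 CPM in PSME4 KD and 17.2 to 21.2 CPM in control KD (3 of 5). Of the fibroblast list COL1A1 was higher and PDGFRA lower, and PTPRC, CD3E, PECAM1, CDH5, PDGFRB and DCN were not analysed here. The samples are A549 cells, an established line, so these sums are not counts of other cell types, and their source was not tested.

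The authors' deposited table of the same comparison lists 18 of the 84 subunits at an adjusted p below 0.05, of which 10 were higher and 8 lower in PSME4 KD. All 18 were among the 22 called by edgeR and had the same direction. Both results come from the same 4 libraries, so this is not independent evidence. The share of all genes that pass in the authors' comparison was not computed.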

How the data were processed

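Polyadenylated RNA of A549 cells was made into 4 libraries with a Lexogen kit, per the labels' protocols. The tools named by the submitters' processing notes are cutadapt, STAR and DESeq2, and the build is hg38. The sources used here do not give versions, the read counter, its strand setting, its handling of reads that match several genes, or the annotation. The deposited table holds raw counts per gene, per the file headers. It also holds signal values that the authors obtained by dividing counts by 1 size factor per library, log2 values, and the authors' p-values with a log2 fold change (control over PSME4 KD). Of these only the authors' own comparison was used beside the counts.

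The tool was edgeR 4.0.16 in R 4.3.3: filterByExpr kept 13497 of 15037 genes, scaling was by TMM, and the quasi-likelihood functions glmQLFit and glmQLFTest took all 4 libraries, with group as sole term. P-values were adjusted by Benjamini-Hochberg over all tested genes, with a threshold of 0.05. The SE of a log2 fold change is its size over the root of its F statistic. CPM values carry the TMM scaling. The biological coefficient of variation came to 15.3%. The filter removes genes of low count, and TMM assumes that most genes do not differ.

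GC content and length are medians over the protein-coding transcripts of a gene in GENCODE 29. The GC correction subtracts a lowess trend (span 0.4) from each library and was fitted to the 96.1% of tested genes with a value. Positions and promoters come from RefSeq (GRCh38.p14, which is the assembly of hg38). Of the tested subunits, 32 overlap another RefSeq gene, 10 of them among the 22 called (NDUFA5, NDUFB3, NDUFB6, NDUFC2, NDUFS8, UQCRB, UQCRC1, COX6A1, ATP5MC1 and ATP5PF), and 51 of the 84 subunits have pseudogenes named for them. Their counts are less certain.

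Alternatives were other scalings, DESeq2 1.42.0, limma voom (limma 3.58.1), other filters, the replicate number as a block, GC and length corrections, each library left out, and a threshold of 0.10. The edgeR steps were tested on simulated counts. Subunits past the threshold, the extremes of each complex, tissue forms, chromosome 8 members and up to 3 called genes of each related list are named. Counts and medians include 1 subunit whose own values are not reported here. Other members were named to complete a subcomplex, after their values were seen. The members and lists were chosen with earlier results of these data known.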

Additional observations from a re-analysis of the deposited data

How the results depend on the processing

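The full fit called 12 subunits higher and 10 lower in PSME4 KD. The count of higher calls was 6 after the GC correction and 7 after the GC correction with the replicate block, and that of lower calls was 6 after the GC correction and 4 after the GC and length correction. With 1 library left out the counts ranged from 0 to 9 higher and from 0 to 1 lower. The other alternatives gave 8 to 15 higher and 9 to 13 lower. The replicate block alone gave 14 higher and 11 lower and added NDUFB10, COX6B2 and ATP5PD to the 22. Shares of all genes that passed are given above for the GC correction alone and for the fits with 1 library left out. For the other alternatives no such share is given here, so their counts have no reference. The labels do not say that equal numbers share a culture, and the deviations of equally numbered libraries from their group means had a correlation of −0.02. Without subunits that overlap another gene, the median log2 fold change was 0.24 over all subunits, against 0.11, 0.37 in complex III, against 0.20, and 0.26 in complex V, against 0.01. Complex V was at −0.12 with no filter on low counts, which adds ATP5MGL. Complex IV, at 0.09 in the full fit, was at 0.24 with no filter and at −0.00104 where 50 counts were required in 2 libraries. With 1 library left out the median ranged from 0.0117 to 0.20 over all subunits, from 0.0021 to 0.29 in complex I, from 0.0408 to 0.29 in complex II, from 0.0324 to 0.44 in complex III, from 0.0666 to 0.40 in complex IV and from −0.16 to 0.11 in complex V. The value of COX7A2L, −0.10 in the full fit, was 0.0441 after the GC correction, 0.115 after the GC and length correction, 0.0557 with block and GC correction, and −0.21 to 0.015 with 1 library left out (0.015 without control KD 1). NDUFA4, at −0.23 in the full fit, was at 0.0235 after the GC and length correction and at 0.0264 with block and GC correction. Neither gene passed in any of these, and the cause was not tested. With 2 libraries per group, the SE of the 22 called log2 fold changes was 0.19 to 0.26, which sets the smallest difference that could pass.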

Other observations

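Of the 82 tested subunits, 19 have a tested neighbour that starts within 1000 bases upstream or 200 bases downstream and runs the other way. In 13 of these 19 pairs subunit and neighbour had log2 fold changes of the same sign. The share among such pairs of all genes is not given here, so the count has no reference. Some of the 13 pairs hold a value near 0, such as NDUFS1 at 0.00159, and shared regulation was not tested. In 1 pair both passed the threshold, NDUFA7 and the ribosomal protein gene RPS28 (1.01, SE 0.24), both higher in PSME4 KD. ATP5PF, which fell, shares its start region with GABPA, an ETS factor known to bind promoters of respiratory chain genes. GABPA had 284 and 259 counts in PSME4 KD and 194 and 288 counts in control KD, a log2 fold change of −0.22 (SE 0.24) without a call. EMC8 beside COX4I1 was at 0.26 (SE 0.20) and MYL5 beside ATP5ME at 0.31 (SE 0.36), and neither passed although both subunits rose.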
